A study of Homo sapiens with 7 samples.

Results

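The strongly transcribed start-site windows were 579 of the 9123 transcript start windows with nascent RNA signal in all 3 wild-type (WT) and all 3 CFAP20-KO libraries, or 6.35% of them. A window runs 100 kb to each side of an annotated transcript start in bins of 200 bp, and its signal is the coverage per bin on the transcribed strand, scaled per library by the authors. A window was a member when its mean over the first 3 kb after the start, averaged over the 3 WT libraries, was 20 or more. The WT start signal therefore chose the members, so start values are a description with no test, and tests were read from the bins after 3 kb and before the start.

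All libraries came from the human line RPE1, immortalised cells of retinal pigment epithelium, on the background iCas9 p53/puro-dKO per the labels, so every group carried the Cas9 transgene and both deletions. The groups were WT (3 libraries), CFAP20-KO (3 libraries) and CFAP20-KO with CFAP20-GFP put back (1 rescue library). Cells of each group were grown in DMEM with serum, given 2 mM bromouridine (BrU) for 30 min and harvested at once. BrU-labelled RNA was pulled down with a mouse antibody to BrdU and sequenced (BrU-seq). The labels say neither whether a line was 1 clone nor whether replicates were separate cultures. The p-values therefore reflect no more than the spread among these libraries, and that spread may be technical. The gene CFAP20 was not analysed here, and the knockout was not checked.

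RNA polymerase II starts at a promoter, is often held shortly after the start, and is then released to move through the gene body. A BrU pulse marks RNA made during that pulse, and signal can also lie past the annotated end of a gene. Strong promoters of cultured cells commonly serve ribosomal proteins, splicing and translation factors, cytoskeletal and matrix genes, and genes that answer to growth factors or stress. CFAP20 is known as a protein of cilia, and the comparison asks how nascent RNA from these windows differed between cells with and without it.

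The windows carry transcript identifiers with no gene names. By matching their profiles with those of windows around replication origins that have coordinates, 245 of the 579 members (42.3%) were placed at a gene start of the hg38 build. Of these, 136 were placed through listed origins or windows already placed, and 109 through origins outside the list where 1 coding start was possible. These names are inferred, and the other members keep their identifier. EEF1A1, RPS14 and GJA1 were placed through listed origins, while CCN1, SRSF3, CXCL8, EMP1 and TGFBI came from origins outside the list.

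The promoters below belong to members whose start, body or upstream values are given in full in what follows. Each is the 150 bases before the RefSeq start (GRCh38.p14), 5′ to 3′ on the gene's strand, with motif matches on either strand in capitals.
EEF1A1, chr6:73521033-73521182, minus strand: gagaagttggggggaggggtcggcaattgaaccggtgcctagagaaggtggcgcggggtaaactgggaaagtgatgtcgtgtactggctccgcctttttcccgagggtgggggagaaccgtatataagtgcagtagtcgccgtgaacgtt
RPS14, chr5:150449740-150449889, minus strand: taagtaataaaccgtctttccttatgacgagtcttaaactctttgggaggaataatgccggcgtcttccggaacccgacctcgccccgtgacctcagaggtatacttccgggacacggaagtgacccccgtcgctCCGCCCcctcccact
SRSF3, chr6:36594212-36594361, plus strand: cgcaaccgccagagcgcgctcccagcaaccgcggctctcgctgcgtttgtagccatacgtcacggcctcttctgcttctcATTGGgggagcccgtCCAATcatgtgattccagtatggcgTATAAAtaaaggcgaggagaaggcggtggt
CXCL8, chr4:73740419-73740568, plus strand: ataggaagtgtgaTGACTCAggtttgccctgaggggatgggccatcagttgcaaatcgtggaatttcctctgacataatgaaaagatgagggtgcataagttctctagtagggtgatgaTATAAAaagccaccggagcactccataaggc
EMP1, chr12:13196576-13196725, plus strand: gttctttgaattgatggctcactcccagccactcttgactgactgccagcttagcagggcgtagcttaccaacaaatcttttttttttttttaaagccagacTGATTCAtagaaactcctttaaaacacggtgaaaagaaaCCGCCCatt
CTSC, chr11:88337737-88337886, minus strand: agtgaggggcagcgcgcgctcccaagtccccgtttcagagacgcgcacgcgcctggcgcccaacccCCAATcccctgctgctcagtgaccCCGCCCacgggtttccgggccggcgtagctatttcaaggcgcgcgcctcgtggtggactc
GJA1, chr6:121435496-121435645, plus strand: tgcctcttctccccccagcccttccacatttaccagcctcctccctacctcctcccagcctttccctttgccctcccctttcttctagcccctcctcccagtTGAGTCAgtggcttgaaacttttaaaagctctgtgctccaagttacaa
TGFBI, chr5:136028838-136028987, plus strand: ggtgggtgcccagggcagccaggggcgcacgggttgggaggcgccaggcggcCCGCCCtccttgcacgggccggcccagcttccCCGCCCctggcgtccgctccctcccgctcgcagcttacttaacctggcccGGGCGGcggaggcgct
The capitals mark TATAAA and CCAAT matches, matches to GGGCGG, and matches to TGANTCA, which is an AP-1 type site. The promoter of EEF1A1, printed without capitals, holds none of the searched motifs in this stretch, which says only that these letters are not in it. SRSF3 carries TATAAA and a pair of CCAAT matches in opposite orientation, and CXCL8 carries TATAAA and TGANTCA. EMP1 and GJA1 each carry 1 TGANTCA match close to the start, TGFBI carries GGGCGG matches, and CTSC carries CCAAT and GGGCGG. The RefSeq start of CTSC lay 44 bp from the placed start.

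RefSeq held a promoter within 100 bp of the placed start for 181 of the 245 placed members. Over the 250 bases before the start, GGGCGG, the core of Sp1-type sites, was found in 70.2% of these 181 promoters and in 42.3% of all 27305 RefSeq promoters. CCAAT was found in 42.0% of the member promoters against 33.0% of all, and the palindrome TGACGTCA, a cyclic-AMP response type site, in 3.31% against 1.77%. TATAAA was found in 11% against 11.1%, CACGTG in 7.18% against 6.49%, TGANTCA in 8.29% against 6.60%, GGAATG (a TEAD type site) in 10.5% against 11.9% and the CArG box in 2.21% against 1.14%. Both strands were searched, and matches are a description of letters. A CArG box can contain CCAAT or TATAAA, as at PPIF and EHD1, so the same site can count under both motifs. The median GC content was 64% in the member promoters and 58% in all promoters, and the median ratio of observed to expected CpG was 0.855 against 0.556. The placed members are a subset that lay in origin windows with a recognisable profile, so these shares describe 181 promoters and not all 579. The 27305 promoters are 1 per gene symbol and were not matched to the members for gene type, length or activity. Placement needed a transcript of 3000 bp or more, so the contrast is not particular to strong start signal.

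The libraries differed in depth and shape. Values in a library are multiples of 1 step, smaller in deeper libraries, which was 0.0733 in WT 2 (smallest) and 0.393 in CFAP20-KO 1 (largest). The members held 54.3 to 58.5% of the start signal summed over all 9123 windows in each of the 7 libraries, and 47.8 to 53.2% of the body signal. Column headers of the deposited splice table carry a number that is the same for WT 1 and CFAP20-KO 1 (the first numbered set), for WT 3, CFAP20-KO 2 and CFAP20-KO 3 (the second), and for WT 2 and the rescue. The labels do not say what the number means, and it is assumed here to hold for the start windows too. The authors' own differences of the splice index pair libraries by this number. CFAP20-KO 2 and 3 were the most alike pair, with log2 body signals over members correlating at 0.994. WT 2 stood apart from the other WT libraries, with the lowest start signal of the 7 libraries, so results are also given without it or within the numbered sets where it matters.

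Start signal among the members was graded, with a few windows far above the rest. The median WT start signal was 30.4, and the range ran from 20 to 1001.7. Of the members, 388 (67.0%) lay from 20 to below 40, 147 (25.4%) from 40 to below 100, and 44 (7.60%) at 100 or more. Just inside the threshold were PCNP (uc003dva.4) at 20, uc002cuk.2 at 20.015 and MDH1 (uc002scj.3), a malate dehydrogenase gene, at 20.033, and just outside were uc001sbt.2, uc002vex.5 and uc002qqa.3, each at 19.9. PCNP read 19.2, 23.7 and 17.1 in WT 1, 2 and 3, and uc001sbt.2 read 24.0, 4.45 and 31.3, so windows near the threshold were ordered by less than the spread of their libraries. A start signal of 20 or more was reached by 558, 278 and 553 members in WT 1, 2 and 3, by 482, 383 and 370 in CFAP20-KO 1, 2 and 3, and by 310 in the rescue. In each of the 3 WT libraries at once it was reached by 261 members.

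Among the 10 highest members by WT start signal were EEF1A1, CCN1, uc003jrn.4, uc002hxj.4, uc002hrq.1, uc002pky.5, uc001dqr.4, RPS14 and SRSF3. EEF1A1 (chr6, start 73521032, minus strand), which brings aminoacyl-tRNA to the ribosome, had start signals of 1137, 745 and 1123 in WT, 1038, 1035 and 995 in CFAP20-KO and 859 in the rescue. WT 2 and the rescue were its lowest libraries, and the CFAP20-KO values lay inside the WT range. CCN1, a secreted matrix-associated protein and a target of YAP and TEAD, read 1011, 684 and 879 in WT, 1415, 513 and 530 in CFAP20-KO and 1272 in the rescue. CFAP20-KO 1 was above every WT library for CCN1 while CFAP20-KO 2 and 3 were below, so the knockout libraries differed among themselves by more than the groups did. The unplaced window uc003jrn.4 read 660, 677 and 668 in WT, 458, 323 and 358 in CFAP20-KO and 810 in the rescue. Here the groups did not overlap, and the rescue lay above all WT libraries. RPS14, a protein of the small ribosomal subunit, read 293, 166 and 253 in WT, 185, 145 and 153 in CFAP20-KO and 172 in the rescue. SRSF3, a splicing factor of the SR family, read 205, 186 and 266 in WT, 142, 170 and 168 in CFAP20-KO and 115 in the rescue, with WT above CFAP20-KO in every pair of libraries and the rescue lowest of all.

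**Figure D1:**
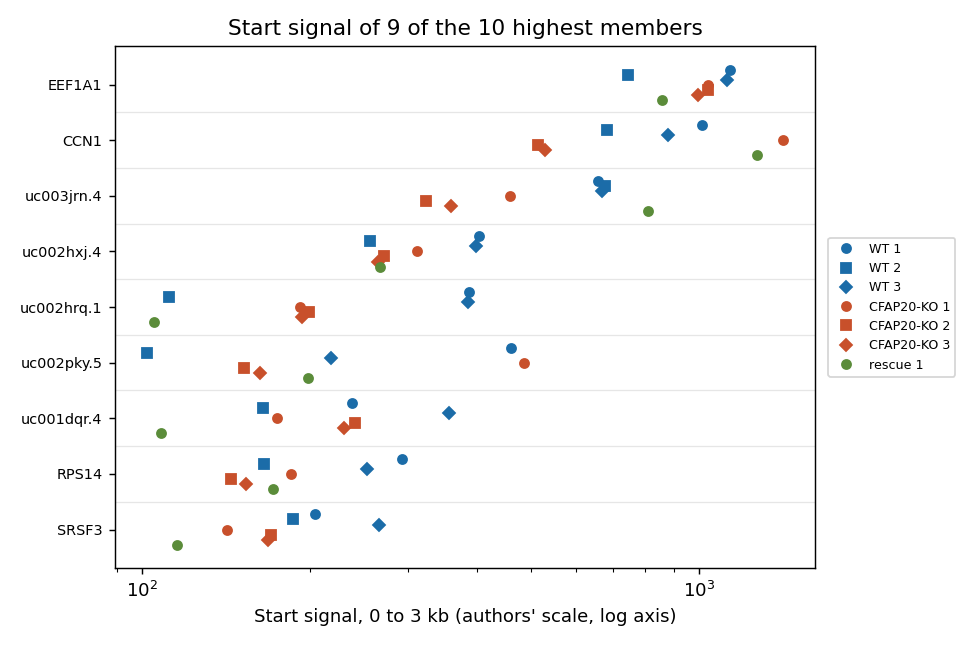
Mean start signal (0 to 3 kb, authors' scale, log axis) of 9 of the 10 highest members, 1 row each, with blue for the 3 WT libraries, orange for the 3 CFAP20-KO libraries and green for the rescue. CCN1 has CFAP20-KO 1 above WT and CFAP20-KO 2 and 3 below WT, while uc003jrn.4 and SRSF3 have all CFAP20-KO libraries below all WT libraries.

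Along the window, the median member rose within the first bins, peaked 800 to 1200 bp after the start in every library, and then fell. The peak of the median profile was 51.9, 22.7 and 44.2 in WT 1, 2 and 3, 39.3, 32.2 and 30.4 in CFAP20-KO 1, 2 and 3, and 23.2 in the rescue. WT 1 and WT 3 had the highest peaks, and WT 2 and the rescue, which share their header number, the lowest. The signal was first at or below 50% of the peak at 3400, 5400 and 3400 bp in WT, at 3800, 4600 and 4600 bp in CFAP20-KO and at 5000 bp in the rescue. The profile thus fell over the shortest distance in WT 1 and WT 3 and over the longest in WT 2, with every CFAP20-KO library in between. In the bin at 200 bp the median was 27.9, 12.5 and 23.3 in WT, 23.2, 11.4 and 12.4 in CFAP20-KO and 16.6 in the rescue.

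**Figure D2:**
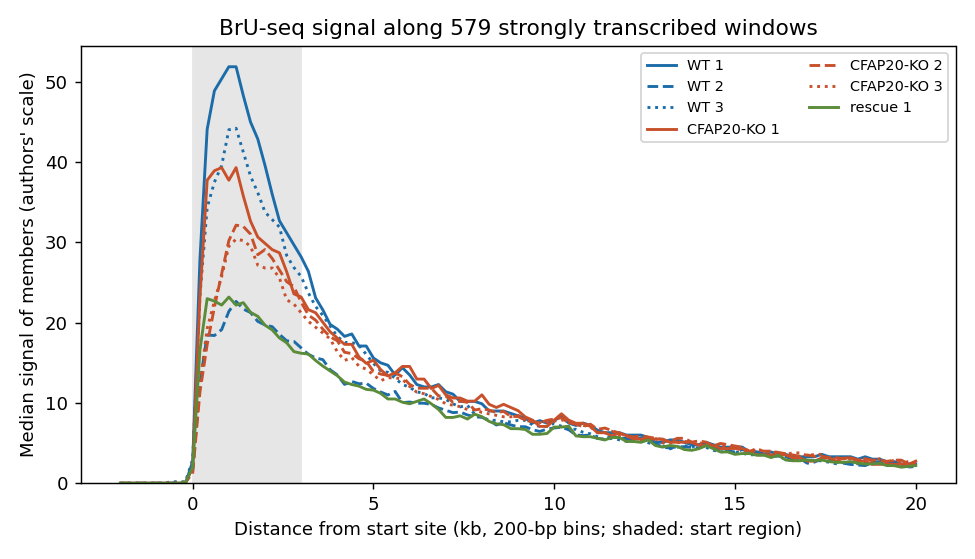
Median signal over the 579 members in each 200-bp bin (y axis, authors' scale) against distance from the start site (x axis, kb), 1 line per library, with the 3 kb that chose the members shaded. WT 1 and WT 3 peak at 51.9 and 44.2, the CFAP20-KO libraries between 30.4 and 39.3, and WT 2 and the rescue at 22.7 and 23.2, and the lines come together beyond 10 kb.

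In the start region, the median over members was 40.1, 19.4 and 34.3 in WT, 33.0, 24.5 and 23.8 in CFAP20-KO and 20.7 in the rescue. On the log2 scale the WT medians averaged 4.90 ± 0.55 (SD, n = 3) and the CFAP20-KO medians 4.75 ± 0.26 (SD, n = 3), and the groups overlapped because WT 2 lay below all CFAP20-KO libraries. In bulk libraries, fewer transcribing cells and less RNA per cell cannot be told apart. Within the numbered sets, the median member difference of CFAP20-KO minus WT was -0.34 in the first and -0.51 in the second (log2), against -0.11 and -0.28 over the 4768 windows tested. Lower start signal in both sets was found for 426 members (73.6%, against 45.2% of all windows tested), and higher in both for 23 (3.97%, against 20%). The groups did not overlap in 8 members with higher start signal (1.38%, against 6.23%) and in 44 with lower (7.60%, against 7.89%). Since a high WT value brought a window into the list, nothing is read from these counts, and no test of the start signal is given for the members. The rescue minus WT 2, the only pair with its number, had a median of 0.16 over members.

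In the gene body, from 3 to 10 kb, no member passed the planned test, and 8 passed when the replicate number was added as a block. The median over members was 15.8, 11.4 and 14.1 in WT, 16.0, 14.1 and 13.4 in CFAP20-KO and 11.8 in the rescue, or 3.77 ± 0.24 against 3.86 ± 0.13 on the log2 scale (SD, n = 3 each). WT 2 and the rescue were lowest, and the other 5 libraries lay between 13.4 and 16.0. By limma on log2(signal + pseudocount), fitted over 5277 windows with Benjamini-Hochberg adjustment, 0 of 579 members were called higher (background 0.398%) and 0 lower (background 0.19%), with 8 higher and 7 lower at an unadjusted p under 0.05. With the replicate number as a block, 3 members were called higher (0.518%, background 1.97%) and 5 lower (0.864%, background 1.35%), shares below those of all windows. The median member difference was 0.07, against 0.17 over all windows tested. Centring the libraries moved the median of all windows to -0.02 and that of the members to -0.13. Centring shifts every window by the same amount, so the gap between members and all windows is the same in both scalings by construction. Without WT 2 the median member difference in the body was -0.065. CFAP20-KO and WT values did not overlap in 35 members with higher body signal (6.05%, background 13.6%) and in 18 with lower (3.11%, background 5.93%). A rescue start signal of 20 or more chose 329 windows, 310 of them members, without use of the WT values. Among these 329 the median body difference was 0.06, and the groups did not overlap in 26 with higher body signal and in 9 with lower.

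**Figure D3:**
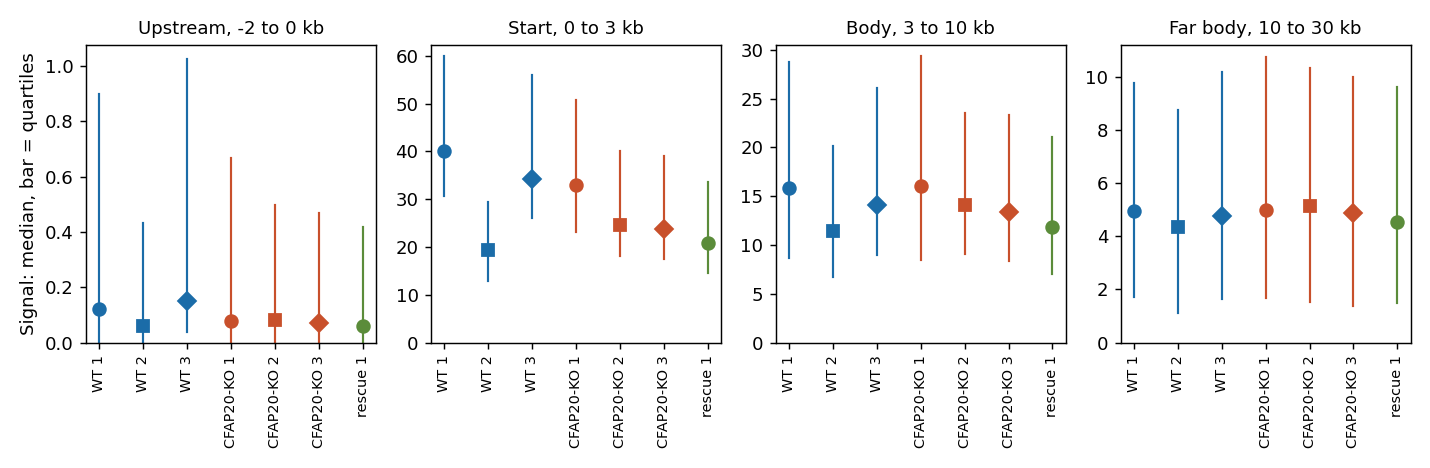
Median signal over the 579 members (symbol) with quartiles (bar) in each of the 7 libraries, for the upstream, start, body and far body regions on the authors' linear scale. WT 2 and the rescue have the lowest start medians (19.4 and 20.7), and body and far body medians differ less between libraries than start medians.

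The largest body differences whose groups did not overlap are given as values, because none passed the planned test. TGFBI (chr5, start 136028988, plus strand), a matrix protein induced by TGF-beta, had body signals of 7.60, 6.10 and 13.9 in WT, 29.9, 17.2 and 16.4 in CFAP20-KO and 13.6 in the rescue. CFAP20-KO 1 was its highest library, and WT 3 came close to CFAP20-KO 2 and 3. The log2 difference was 1.23 with a standard error of 0.43 (limma adjusted p = 0.337), made up of 1.97 in the first numbered set and 0.27 in the second. SLC33A1, an acetyl-CoA transporter, read 4.57, 3.17 and 4.73 in WT, 15.4, 8.91 and 7.48 in CFAP20-KO and 4.14 in the rescue, a log2 difference of 1.30 ± 0.39 (SE, limma adjusted p = 0.245, and 0.0341 with the replicate block). Its rescue value lay inside the WT range. SKIL, which restrains SMAD signalling, read 5.51, 8.17 and 5.47 in WT, 11.5, 11.3 and 11.8 in CFAP20-KO and 7.29 in the rescue, with almost equal knockout libraries and the rescue again inside the WT range. Its log2 difference was 0.87 ± 0.34 (SE, limma adjusted p = 0.385), and 1.06 and 1.07 within the numbered sets. ARPC1A, a subunit of the Arp2/3 actin complex, had a log2 difference of 0.95, and MRPL15, a mitochondrial ribosomal protein, of 0.65. Of the unplaced windows, uc003mco.2 read 143, 76.0 and 106 in WT, 353, 220 and 235 in CFAP20-KO and 309 in the rescue, and uc284pyh.1 read 0.583, 0.580 and 0.635 in WT, 1.71, 1.86 and 1.47 in CFAP20-KO and 2.35 in the rescue. In both, the rescue lay with or above CFAP20-KO and away from WT, and the limma adjusted p with the replicate block was 0.0404 for uc003mco.2 and 0.0453 for uc284pyh.1.

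On the lower side, CXCL8 (chr4, start 73740569, plus strand), the gene of the chemokine interleukin-8, had body signals of 2.26, 3.55 and 0.491 in WT, 0.180, 0.151 and 0.201 in CFAP20-KO and 0.671 in the rescue. This region lies almost wholly past the annotated end of CXCL8, a short gene. The WT libraries spread widely, with WT 3 the lowest, yet each was above every CFAP20-KO library. The log2 difference was -3.05 with a standard error of 0.69 (limma adjusted p = 0.112). The limma adjusted p was 0.0191 with the replicate block and 0.0255 without WT 3. Start signals of CXCL8 went from 55.3, 73.4 and 9.26 in WT to 6.87, 2.58 and 1.76 in CFAP20-KO, with 21.6 in the rescue, and WT 3 was again the WT library nearest to CFAP20-KO. The unplaced window uc002inx.4 read 21.2, 8.49 and 7.22 in WT, 3.33, 0.695 and 0.710 in CFAP20-KO and 3.67 in the rescue, a log2 difference of -3.19 ± 0.66 (SE, limma adjusted p = 0.0925). Its limma adjusted p was 0.000336 with the replicate block, and 0.0185 without CFAP20-KO 1, the knockout library nearest to WT. LSM8, part of the ring that binds U6 small nuclear RNA, read 11.5, 16.4 and 16.9 in WT, 3.93, 10.5 and 10.1 in CFAP20-KO and 5.46 in the rescue, with CFAP20-KO 1 and the rescue far below the others. NCAPG2, a condensin II subunit, read 5.43, 8.31 and 7.15 in WT, 2.99, 4.05 and 3.87 in CFAP20-KO and 4.33 in the rescue. Both LSM8 (log2 difference -0.97) and NCAPG2 (-0.93) were lower in each numbered set and in the rescue than in WT 2. MGST1, a microsomal glutathione transferase, and DDX47, an RNA helicase, had log2 differences of -0.76 and -0.71.

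**Figure D4:**
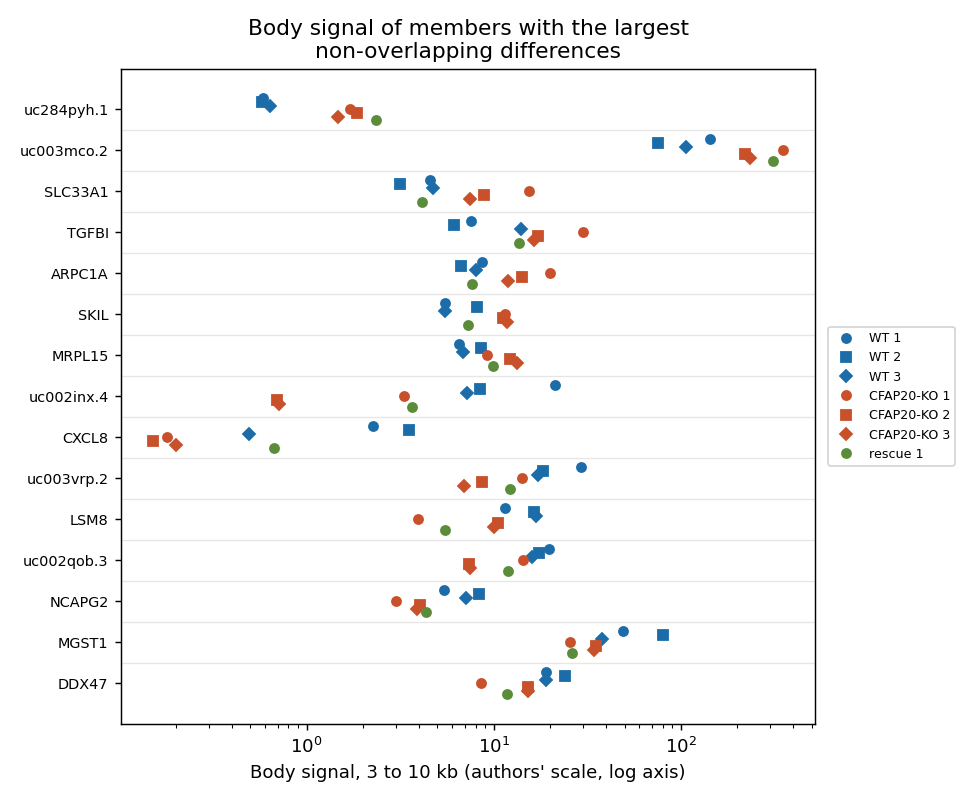
Body signal (3 to 10 kb, authors' scale, log axis) in each of the 7 libraries for the 15 members with the largest body differences whose WT and CFAP20-KO values did not overlap, higher members at the top and lower ones below. The rescue (green) lies inside the WT range for SLC33A1 and SKIL and inside or above the CFAP20-KO range for uc003mco.2 and uc284pyh.1, and none of the 15 passed the planned limma test.

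Farther into the genes, from 10 to 30 kb, no member passed the planned test either. The median was 4.97, 4.34 and 4.77 in WT, 4.99, 5.13 and 4.89 in CFAP20-KO and 4.53 in the rescue. Of 572 members above the filter on low signal, 0 were called higher by limma (background 0.328%) and 0 lower (background 0.164%), with 13 higher and 20 lower at an unadjusted p under 0.05, and the median difference was 0.11 against 0.13 over 6091 windows (-0.015 for the members without WT 2). The replicate number as a block gave 5 higher (0.874%, background 3.33%) and 18 lower (3.15%, background 2.58%). The groups did not overlap in 55 members with higher far body signal (9.62%, background 12%) and in 34 with lower (5.94%, background 7.13%). PMAIP1, which encodes the pro-apoptotic protein NOXA, read 0.471, 0.222 and 0.385 in WT, 0.0354, 0.0624 and 0.0738 in CFAP20-KO and 0.065 in the rescue. Every WT library was above every CFAP20-KO library, and the rescue lay with CFAP20-KO. The log2 difference was -2.51 with a standard error of 0.52 (limma adjusted p = 0.0703, and 0.0454 with the libraries centred). PMAIP1 is annotated to end before this region begins, so these low values lie past its end. GJA1 (chr6, start 121435646, plus strand), the gap junction protein connexin 43, read 5.27, 7.37 and 10.6 in WT, 12, 17.1 and 16.5 in CFAP20-KO and 12 in the rescue, a log2 difference of 1.02 ± 0.38 (SE, limma adjusted p = 0.325). Its annotated end lies inside this region, so part of the signal is past the gene. Its start and body had the same order of the WT libraries, with start signals of 13.1, 23.3 and 38.0 in WT and 39.1, 50.3 and 47.7 in CFAP20-KO. SKIL again had close knockout values, 7.47, 7.40 and 7.87 against 3.64, 5.06 and 3.36 in WT, with 5.86 in the rescue. HPCAL1, a calcium sensor, had a log2 difference of 1.16, with 24.5 in the rescue, above all other libraries. YOD1, a deubiquitinase, read 1.36, 1.33 and 1.28 in WT and 0.334, 0.520 and 0.495 in CFAP20-KO, with 0.994 in the rescue between the groups. The log2 differences of HLA-E, a non-classical MHC class I gene, and of TRIB1, a pseudokinase gene, were -1.36 and -1.29 and rest on signals below 0.5 in every library. YOD1, HLA-E and TRIB1, like PMAIP1, are annotated to end before 10 kb. With the replicate block, the limma adjusted p was 0.00112 for PMAIP1, 0.00451 for YOD1, 0.0191 for HPCAL1 and 0.0378 for GJA1.

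Where the placed members were grouped by gene length, the far body signal was low only for the genes that end before this region. For the 34 genes of 3 to below 10 kb, which end before this region, the median far body signal was 0.517 in WT and 0.268 in CFAP20-KO. It was 7.63 and 7.54 for 102 genes of 10 to below 30 kb, 7.80 and 8.44 for 77 genes of 30 to below 100 kb, and 6.75 and 7.87 for 32 longer genes. Among the 34 short genes the libraries read 0.516, 0.242 and 0.565 in WT, 0.336, 0.272 and 0.269 in CFAP20-KO and 0.265 in the rescue. WT 1 and WT 3 were above all CFAP20-KO libraries there, and WT 2 was below them.

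Before the start, from -2 kb to 0, signal on the transcribed strand was low, and the size of its median difference depended on the WT libraries included. The median over members was 0.12, 0.0587 and 0.149 in WT, 0.0787, 0.0800 and 0.0720 in CFAP20-KO and 0.0600 in the rescue. WT 1 and WT 3 were above the CFAP20-KO libraries and WT 2 below, and upstream signal came to 0.315% of start signal in WT and 0.237% in CFAP20-KO (median over members, mean of libraries). Only 387 of the 579 members were above the filter, so counts describe these 387. Among them 0 were called lower by limma (background 0.0626%) and 0 higher (background 0.094%), with 32 lower and 4 higher at an unadjusted p under 0.05. The median difference was -0.37, against -0.14 over all 3193 windows tested. It was -0.163 with 10 times the pseudocount, and with 1 library left out it ran from -0.142 without WT 3 to -0.765 without WT 2. Without the filter, the difference of mean library medians (log2) was -0.32 over all 579 members. Over the 2789 windows with a WT start signal of 1 to below 20 it was -0.70. On summed signal these differences were -0.33 and -0.12, so the order of the window groups depended on the measure. The groups did not overlap in 42 members with lower upstream signal (10.9%, background 8.46%) and in 13 with higher (3.36%, background 5.67%). With the header number as a covariate, 82 were called lower (21.2%, background 8.8%) and 2 higher (0.517%, background 2.16%), and with the replicate number as a block 10 were lower (2.58%, background 1.03%) and 0 higher (background 0.376%). Without WT 2, limma called 6 lower (1.55%, background 0.438%) and 0 higher (background 0.094%). Upstream signal was lower in both numbered sets in 220 of the 387 members (56.8%, background 38.9%) and higher in both in 38 (9.82%, background 18.6%). The median member difference was -0.54 in the first set and -0.96 in the second, against -0.08 and -0.49 over all windows tested.

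EMP1 (chr12, start 13196726, plus strand), an epithelial membrane protein gene, had upstream signals of 1.29, 0.513 and 2.02 in WT, 0, 0.336 and 0.252 in CFAP20-KO and 0.0100 in the rescue. The log2 difference was -2.93 with a standard error of 0.80 (limma adjusted p = 0.121), and the adjusted p was 0.0356 without CFAP20-KO 2. With CFAP20-KO 2 and 3 averaged as 1 sample, EMP1 was the 1 named difference that passed (limma adjusted p = 0.0411). Start signals of EMP1 were 52.7, 49.5 and 32.5 in WT, 23.7, 19.6 and 17.1 in CFAP20-KO and 20.2 in the rescue. All WT libraries were above all others at the start, but high WT start signal chose the members, so nothing is read from this order. CTSC (chr11, minus strand), which encodes the protease cathepsin C, read 1.71, 0.623 and 2.39 upstream in WT, 0.236, 0.192 and 0.252 in CFAP20-KO and 0.330 in the rescue (log2 difference -2.45 ± 0.68 SE, limma adjusted p = 0.127). At its start CTSC read 80.7, 68.6 and 105 in WT, 27.5, 47.2 and 43.2 in CFAP20-KO and 29.4 in the rescue. In both genes the rescue lay near CFAP20-KO. OLMALINC, annotated as a long non-coding RNA, had the highest upstream values of the named members, 18.7, 9.45 and 24.6 in WT, 5.82, 3.02 and 3.17 in CFAP20-KO and 3.64 in the rescue, with a log2 difference of -2.09. With the replicate block, the limma adjusted p was 0.00106 for EMP1, 0.0068 for CTSC and 0.00485 for OLMALINC. On the higher side, NACA, a chaperone of nascent chains at the ribosome, read 1.65, 1.55 and 1.46 in WT, 2.48, 2.93 and 2.86 in CFAP20-KO and 2.16 in the rescue, a log2 difference of 0.81 (limma adjusted p = 0.745). The upstream window uc003kve.5 was listed at 0 in the 3 WT libraries and at 0.0787, 0.0640 and 0.108 in CFAP20-KO. It passed the filter on mean signal only through these CFAP20-KO values. They amount to a few steps of their libraries spread over the region, near the floor, so nothing is read from them.

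The ratio of body to start signal shares the start bins that chose the members, so it is a description with no test. Its median (log2) averaged -1.17 ± 0.37 over WT and -0.91 ± 0.09 over CFAP20-KO libraries (SD, n = 3 each), and CFAP20-KO was above WT by 0.42 in the first numbered set and by 0.48 in the second. Among the 2789 windows with a WT start signal of 1 to below 20, the same differences were 0.35 and 0.42. The rescue minus WT 2 was -0.05. The median member difference was 0.20 against 0.19 over all windows, and with 1 library left out it ran from 0.0737 without WT 1 to 0.393 without WT 2. With the libraries centred both medians were -0.03. The groups did not overlap in 68 members with a higher ratio (11.7%, background 9.9%) and in 9 with a lower one (1.55%, background 2.31%). A ratio that uses no start bin, far body over body, was added after the data were seen. By limma it called 0 members (10 higher and 9 lower at an unadjusted p under 0.05), with a median difference of 0.04 against 0.00 over all windows.

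Within the numbered sets, the body differences of the members spread to both sides of 0. Whether the choice of members on WT start signal carries into the bins outside the start was not tested. The body was lower in both sets in 205 members (35.4%, background 26.6%) and higher in both in 162 (28.0%, background 39.3%), and the far body lower in 157 (27.4%, background 28.2%) and higher in 201 (35.1%, background 34.9%). With the header number as a covariate, limma called 33 members higher in the body (5.70%, background 9.08%) and 57 lower (9.84%, background 7.13%), and with the libraries centred as well 18 higher (3.11%, background 6.29%) and 85 lower (14.7%, background 8.75%). For the far body it called 51 higher (8.92%, background 9.51%) and 49 lower (8.57%, background 7.29%). In the fit with the header number, WT 2 is alone among the fitted libraries of its number and has no weight, and the spread rests partly on CFAP20-KO 2 and 3, the pair most alike. Of the 48 named differences in the body, far body and upstream signal, 33 passed with this covariate, 22 with the block and 0 in the planned fit.

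**Figure D5:**
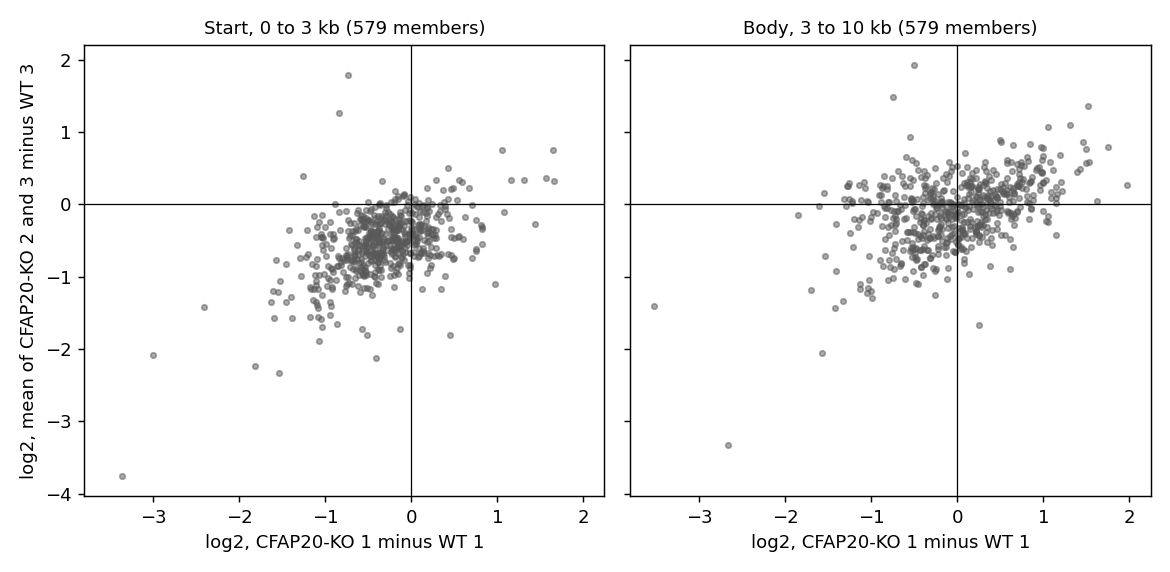
Difference of CFAP20-KO minus WT per member (log2) in the first numbered set (x axis) and the second (y axis), for the start (left) and the body (right), 1 point per member. Start points lie mostly in the lower left (426 of 579 lower in both sets), where the choice of members on WT start signal contributes by construction, and body points lie around the origin (205 lower and 162 higher in both).

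The gene groups that could be read were small, because a listed gene had to be among the 245 placed members. The 4 cytoplasmic ribosomal protein genes were RPS14, RPL37A, RPL6 and RPL14, and 0 passed the planned limma test in any region. Body signals of RPL37A were 54.6, 73.1 and 78.5 in WT, 64.3, 74.5 and 71.3 in CFAP20-KO and 49.3 in the rescue, and the median log2 body difference of the 4 genes was -0.05. Start signal was lower in both numbered sets for all 4, as for 73.6% of members. The 3 RNA processing genes, SRSF3, HNRNPC and HNRNPH1, had a median log2 body difference of -0.16. HNRNPH1, which binds G-rich RNA, read 38.4, 52.3 and 64.1 in the body in WT but 15.8, 78.6 and 73.9 in CFAP20-KO, so CFAP20-KO 1 lay below all other libraries (38.7 in the rescue) and CFAP20-KO 2 and 3 above.

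Among 4 matrix and integrin genes (LOX, COL12A1, TGFBI and ITGA5), the median log2 body difference was 0.48, against 0.07 over all members. Of these, 1 (TGFBI) had groups that did not overlap, with CFAP20-KO higher (background 13.6%). COL12A1, a collagen, read 7.27, 10.3 and 11.6 in WT and 8.08, 14.4 and 15.4 in CFAP20-KO, with 11.2 in the rescue. ITGA5, the alpha chain of the fibronectin receptor, read 51.9, 13.5 and 32.8 in WT, 69.5, 36.6 and 31.6 in CFAP20-KO and 23.8 in the rescue, a spread within each group wider than the log2 difference of 0.60. LOX, which cross-links collagen, was lower in CFAP20-KO 1 (9.33) and higher in CFAP20-KO 2 and 3 (28.5 and 30.2) than in WT (12.1, 18.1 and 22.7).

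The lists of growth-factor response and of growth and proliferation held MYC, DUSP5 and MCM3, and 0 of them passed the planned limma test. DUSP5, a phosphatase of ERK induced by ERK signalling, had body signals of 151, 96.7 and 73.4 in WT, 89.7, 37.2 and 35.3 in CFAP20-KO and 83.8 in the rescue. Its far body values did not overlap, at 51.7, 30.6 and 41.4 in WT and 24.2, 19.6 and 17.3 in CFAP20-KO, with 27.0 in the rescue (log2 difference -1.0 ± 0.36 SE, limma adjusted p = 0.313). The annotated end of DUSP5 lies inside the far body region. MYC, a transcription factor of growth, read 126, 63.5 and 143 in the body in WT, 135, 92.2 and 90.1 in CFAP20-KO and 97.9 in the rescue, with overlapping groups. MCM3 had body signals of 18.9, 24.7 and 27.9 in WT and 14.1, 24.7 and 26.5 in CFAP20-KO. The only chaperone gene, HSP90AA1, read 28.9, 25.3 and 40.6 in the body in WT, 17.2, 131 and 98.3 in CFAP20-KO and 28.2 in the rescue. CFAP20-KO 2 and 3 alone were high, and the log2 difference was -0.75 in the first numbered set and 1.48 in the second. No placed member came from the lists of actin and serum response, glycolysis, elongation or cilium genes, or from the lists of retinal pigment epithelium and other cell type markers, so the labelled cell type was not checked in these windows.

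Larger groups were put together from the placed members themselves, after their names were known, and carry no independent weight. The 14 mitosis genes had a median log2 body difference of -0.18 (2 higher and 1 lower without overlap), the 12 replication and repair genes -0.09 (0 and 0), and the 11 redox genes -0.05 (0 and 1). The 11 zinc finger genes had 0.11 (1 and 0), and the 17 signalling feedback and stress genes 0.01 (3 and 2). Over all windows tested, body groups did not overlap in 13.6% with higher signal and in 5.93% with lower. In each of these groups 0 members passed the planned limma test.

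The rescue, a single library without replicate, allows no test. Among the 18 members with lower body signal and no overlap, the rescue was nearer to the CFAP20-KO mean than to the WT mean in 13, and among the 35 with higher body signal in 16. For lower far body signal this was 21 of 34, for higher far body 26 of 55, for lower upstream signal 34 of 42, and for higher upstream signal 10 of 13. Over all 579 members the rescue was nearer to CFAP20-KO in 272 for the body, 286 for the far body and 337 for the upstream signal. With WT 2 in place of the WT mean, these counts were 298, 293 and 225. For members without overlap they were then 14 (lower) and 15 (higher) in the body, 18 and 27 in the far body, and 33 and 9 upstream. The upstream counts over all 579 include members below the filter. The rescue shares its header number only with WT 2, so the return of CFAP20-GFP and that number cannot be told apart.

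The splice index, a separate deposited readout per intron as a fraction from 0 to 1, was available for 416 introns of 159 placed member genes. By limma over 6537 introns, 0 were called (373 at an unadjusted p under 0.05, smallest adjusted p = 0.833), and 0 of the 416 member introns (24 at an unadjusted p under 0.05). The median index of the member introns was 0.60, 0.678 and 0.677 in WT, 0.589, 0.715 and 0.713 in CFAP20-KO and 0.747 in the rescue, so WT 1 and CFAP20-KO 1 were the lowest libraries. Gene medians did not overlap in 10 genes with a higher index (6.29%, against 4.05% of all 2891 genes measured) and in 9 with a lower one (5.66%, against 5.71%). RUNX1, a transcription factor gene with 2 introns measured, read 0.461, 0.544 and 0.501 in WT, 0.235, 0.315 and 0.319 in CFAP20-KO and 0.506 in the rescue. CPA4, a carboxypeptidase gene with 5 introns, read 0.698, 0.903 and 0.792 in WT, 0.40, 0.478 and 0.541 in CFAP20-KO and 0.911 in the rescue. In both genes the rescue lay inside or above the WT range. SET, a histone chaperone gene with 5 introns, read 0.868, 0.844 and 0.87 in WT, 0.916, 0.959 and 0.959 in CFAP20-KO and 0.924 in the rescue, on the opposite side. These genes were chosen after their values were seen, and the depth behind each index is unknown.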

How the data were processed

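Signal per 200-bp bin (coverage of the transcribed strand) was deposited as tables that the authors had scaled library by library, and the sources used here do not give the reference of that scaling. The authors used STAR 2.7.7a, HOMER 4.8.2, SAMtools 1.11, Trim Galore 0.6.5, FastQC 0.11.9 and R 4.0.5 with the hg38 build, per the submitters' processing notes. A splice index per intron was deposited as a fraction from 0 to 1, without a definition by the authors or a depth in the sources used here.

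Mean signals over the start (0 to 3 kb), body (3 to 10 kb), far body (10 to 30 kb) and upstream (2 kb) bins were put on the log2(signal + pseudocount) scale. As pseudocount, the 10th percentile over the non-zero values of each region was taken (0.0498 for the start, 0.0183 for the body, 0.0064 for the far body and 0.0320 upstream), which understates changes of low windows. Windows with a mean at or above it were tested, 3 WT against 3 CFAP20-KO libraries, with limma 3.58.1 (trend and robust, statmod 1.5.0, R 4.3.3) and Benjamini-Hochberg adjustment over all windows at 0.05. No test is given for members at the start or for the body-to-start ratio, which share bins with the rule that chose them. The fit was tested on simulated data. Scripts used Python 3.11.15. Counting intervals were not computed, because 1 fragment covers several bins.

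Windows were placed at gene starts (GENCODE 44) by comparing log profiles from -2 to 20 kb with those of origin windows. The planned rule (correlation of 0.95 or more) placed 88 members. A looser rule (correlation of 0.90 or more and level within 10% in all 6 libraries, at 1 locus) and the use of origins outside the list were added after the data were seen and placed 245. The setting for origins outside the list was chosen among 12 on members whose position was known (103 of 103 the same gene), so this is not an independent accuracy. Outside the list of origins only coding starts were considered.

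Members and gene lists were chosen with earlier results of these data known. Named members were the 10 with the highest WT start signal, the 3 on each side of the threshold, and per region and direction the 5 with the largest change and no overlap between groups, over all members and over placed members, plus up to 4 placed members per list; 1 named member is not reported here and was left out of its list. Further regions shown for a named member, and the splice genes, were chosen after their values were seen.

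To check whether same-numbered replicates pair, their deviations from the group means were correlated. Over the members the 3 pairs correlated at 0.838, 0.566 and 0.371 in the body, 0.761, 0.40 and 0.249 in the far body and 0.292, 0.0457 and 0.161 upstream. Over all windows tested they correlated at 0.608, 0.35 and 0.128 in the body and 0.544, 0.30 and 0.044 in the far body. In the body over members, WT 2 correlated with CFAP20-KO 3 at 0.618 and WT 3 with CFAP20-KO 2 at 0.406. Each value was above that of the same-numbered pair of that WT library, while the other unlike pairs correlated negatively. These correlations therefore cannot show that the numbers 2 and 3 mark pairs. The labels do not say that a number marks a shared batch, and pairs 1 and 3 also share a header number, so the block was kept as an alternative. Differences of the splice index deposited by the authors pair CFAP20-KO 1 with WT 1, and CFAP20-KO 2 and 3 with WT 3. They pair the rescue with WT 2, all as the header number does. The block instead pairs CFAP20-KO 2 with WT 2, so its adjusted p-values rest on a pairing other than the authors'. Every same-numbered pair was above 0.1 in the body, over members and over all windows, but not in the far body over all windows or upstream. Counts with the block, and its adjusted p for the named members it called, stand beside the results. Alternatives were the filter, pseudocount, centring, bins, block, header number and each library left out.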

Additional observations from a re-analysis of the deposited data

How the results depend on the processing

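With the replicate number as a block, limma called 3 members higher and 5 lower in the body (1.97% and 1.35% over all windows), 10 lower upstream (1.03%), and 5 higher and 18 lower in the far body (3.33% and 2.58%). With block and centring it called 5 and 32 in the body (2.92% and 4.93%), 9 lower upstream (0.94%), and 4 and 27 in the far body (2.89% and 4.24%). The header number as covariate gave 33 and 57 in the body (9.08% and 7.13%), 2 and 82 upstream (2.16% and 8.8%), and 51 and 49 in the far body (9.51% and 7.29%). With centring as well it gave 18 and 85 (6.29% and 8.75%), 5 and 47 (3.66% and 4.32%), and 41 and 52 (8.14% and 7.52%). The members' own shares are these counts over 579, 387 and 572 members. The cause was not tested.

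Upstream, 1 member was called lower with no filter (3 of all 9123 windows) and with centring (4 of 3193). The same number was called with CFAP20-KO 2 and 3 averaged (4 of 3193) and with bins from -10 to -2 kb (19 of 4183). With centring 1 was called lower in the far body (0.345% of all windows, and 0.125% upstream). Leaving out 1 library gave 0 to 1 lower in the body, 1 each without WT 3 and without CFAP20-KO 1 (8 of all 5277 windows in each fit). Upstream it gave 0 to 6 lower, 6 without WT 2 (14 of 3193) and 1 without CFAP20-KO 2 (6 of 3193). The median far body difference ran from -0.015 to 0.165 when 1 library was left out, and was -0.010 with centring, -0.010 with block and centring, -0.010 with the header number and -0.051 with header number and centring. The median body difference was -0.19 with header number and centring, and from -0.065 to 0.139 with 1 library left out.

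Directions turned in 8 named differences. With the first 1 kb as the start, the ratio differences of uc002hef.3 (GIT1), uc002myz.2, uc003agq.1 (UQCR10) and uc021ofy.2 were 0.18, 0.065, 0.25 and 0.020. With upstream bins from -10 to -2 kb, uc001xbq.2 (MAPK1IP1L), uc003fdm.4, uc003kve.5 and uc060ibx.1 had -0.13, 0.78, -0.37 and -0.26. For the named members, 795 other values kept direction and 124 passed the threshold under an alternative. Those 795 also kept their side of the threshold, except that ratio values were checked for direction only. The number of placed members was 88 by the planned rule and 245 by the looser one. The splice index gave 0 calls over all introns in every fit run, the replicate block (smallest adjusted p = 0.41) included. Low upstream signals, 1 rescue library and unknown scaling limit these comparisons.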

Other observations

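Among the placed members, 4 lay on chromosome 12 between 10 and 20 Mb (MGST1, EMP1, APOLD1 and DDX47). Their median log2 body difference was -0.74, against 0.07 over all members, and it was -1.04 in the first numbered set, -0.26 in the second, and -0.99 for the rescue minus WT 2. Body groups did not overlap, with CFAP20-KO lower, in 3 of the 4 genes (background 5.93%), and start groups in 3 (background 7.89%). The start bins chose the members, so nothing is read from the start count. The single rescue library was also below WT 2 here. A group of 5 placed members on chromosome 20 between 0 and 10 Mb (C20orf96, CDC25B, RBCK1, MAVS and DDRGK1) had a median of -0.80, with -1.0 and -1.20 within the sets and -0.37 for the rescue minus WT 2. MAVS was an exception, with a log2 body difference of 0.39. These 10-Mb blocks were picked after their values were seen among all blocks with 3 or more placed members, and no test was made.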
